A study of Mus musculus with 18 samples.

Results

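Mitotic cells made up 146 of the 624 single yolk sac cells measured at embryonic day (E) 12.5, out of 2358 cells of at least 600 UMIs in the whole series. The members were selected on these same counts, and a cell was taken as mitotic when it held 2 or more UMIs, the unique molecular identifiers that each mark 1 captured transcript, summed over Mki67, Top2a, Birc5, Cdca8, Tpx2, Ube2c, Ccnb1, Ccnb2 and Cdc20. The rule also names Plk1, but the table joins Plk1 with the neighbouring gene Dctn5 in 1 row, which held 140.2 CPM (UMI counts scaled to a common total per library and class) in cells with no UMI of the other genes, so this row was not counted. The reference was the 372 cells of the same libraries with 0 UMIs of these genes, and the 106 cells with 1 UMI stood between. The 4 yolk sac libraries held 46, 34, 40 and 26 mitotic cells.

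All libraries came from untreated C57BL/6J mice with a CX3CR1-GFP reporter, green fluorescent protein expressed from the gene of the fractalkine receptor. Cells of yolk sac at E12.5 and of brain at E12.5 were sorted by the same gate, CD45+CD11B+CX3CR1-GFP+, and there were 4 libraries of each. The reporter is also active in blood monocytes and their precursors, so the gate is not confined to macrophages. MARS-seq, which sorts 1 cell into each well of a plate and sequences the 3′ ends of polyadenylated RNA, was the assay. Brain libraries of E18.5 (6) and of adult mice (4), sorted as CD45intCD11BintCX3CR1-GFP+, enter only the shares of mitotic cells. The well annotation gives 1 subject number for the yolk sac libraries, so p-values measure the spread between libraries, which may be technical.

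The yolk sac is the first site of blood formation in the mouse embryo, and its macrophages seed several tissues, among them the brain, where they give rise to microglia. Embryonic macrophages divide while they carry out clearance, so growth and specialised function meet in the same cell. In a dividing cell, replication factors and histones are made in S phase, and the kinases, cyclins, motors and checkpoint proteins that build the spindle accumulate in G2 and mitosis and are then degraded through the anaphase-promoting complex.

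The values that chose the members are given here as a description. Of the 146 cells, 36 held exactly 2 UMIs of the defining genes, 26 held 3, 19 held 4, 16 held 5, 29 held 6 to 9 and 20 held 10 or more, with a maximum of 36. The ubiquitin-conjugating enzyme Ube2c, which works with the anaphase-promoting complex, gave 229 UMIs and was seen in 56.2% of members. Cdca8 of the chromosomal passenger complex was seen in 55.5%, Birc5 of the same complex in 51.4%, the topoisomerase Top2a in 39.0% and Mki67 in 16.4%. Ccnb1 gave 2 UMIs in all members. Cells just outside the rule, with 1 UMI, had a median of 1630 UMIs, members with exactly 2 had a median of 1451, all members 1829.5 and reference cells 1481.5. Members were thus deeper than the reference, and a rule that counts UMIs is met more readily by a deep cell. In yolk sac, wells annotated with 0 cells held at most 33 UMIs each, and 1 UMI of a defining gene was found in them.

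Whether the members were macrophages was checked against markers. Complement C1q, which macrophages make from C1qa, C1qb and C1qc, was present with 2 or more UMIs in 136 of 146 members and 366 of 372 reference cells. The share of C1q in a cell's UMIs set some members apart, and 22 of the 146 members were under 0.3% against 12 of the 372 reference cells. These 22 members, found in all 4 libraries (7, 7, 5 and 3 cells), had a median of 3670.0 UMIs and gave 27.0% of the members' UMIs. The limit of 0.3% was set after the values were seen and cuts a range, with 6 members and 7 reference cells between 0.2% and 0.4%. In the median cell of the 22, core macrophage transcripts took 0.969% of UMIs, against 2.91% in the other 124 members and 3.62% in reference cells at or over the limit. That list holds the 3 C1q genes on which the limit is set, and without them the medians were 0.969%, 1.90% and 2.26%. The 22 cells were thus low in macrophage markers, and the members are called mitotic yolk sac cells here.

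Most UMIs of the granulocyte precursor and progenitor lists in members lay in those 22 cells, apart from those of Elane and Ctsg. Of 346 UMIs of 6 granulocyte precursor genes (Mpo, Elane, Prtn3, Ctsg, Ms4a3, Cebpe) in members, 235 were in the 22 cells, 11 of which held 5 or more. Summed per library, this list reached 729 to 1811 CPM in members and 161 to 1326 CPM in reference cells, and Cebpe was at 0 in members. All 5 neutrophil genes were at 0 in both classes. Of 5 monocyte genes Vcan was at 0 in both classes and Plac8 in members, with sums of 0 to 32.9 CPM in members and 0 to 43.6 CPM in the reference. Progenitor genes summed to 132 to 410.3 CPM in members and 86.9 to 137 CPM in the reference, and microglia genes to 65.9 to 217 and 47.4 to 112 CPM. Endothelial genes summed to 32.7 to 582 and 31.1 to 73.1 CPM, yolk sac endoderm genes to 45.6 to 452 and 137 to 361 CPM and erythroid genes to 263 to 13023 and 253 to 2155 CPM. Megakaryocyte and platelet genes reached 309 CPM in 1 member sum and 29.2 CPM at most in the reference, with Ppbp at 0 in members. Of 4 mast cell genes Cpa3 and Mcpt4 were at 0 in both classes. The part of these cells in the differences between classes was tested only by leaving cells out. The deepest member, a cell of library 2 with 11943 UMIs, was 1 of the 22 and held 1010 of their 1029 erythroid UMIs (1187 in all members), 24 of their 28 megakaryocyte UMIs, 42 of endothelial genes and 17 of core macrophage genes, while the next deepest yolk sac cell had 7060 UMIs. Each count below was therefore repeated with only the 124 members and 360 reference cells at or over the C1q limit, and without the deepest member, both chosen after seeing the data.

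**Figure D1:**
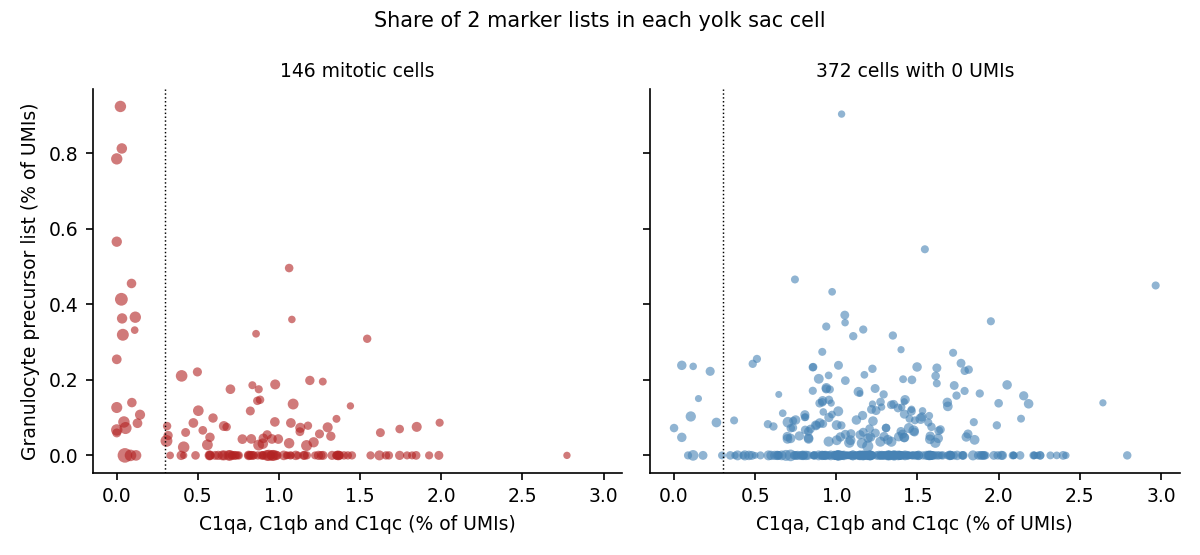
Each point is 1 yolk sac cell, with the share of its UMIs from C1qa, C1qb and C1qc on the horizontal axis and from the granulocyte precursor list on the vertical axis, both in percent, and point area growing with the cell's UMIs. The dotted line marks 0.3%, with 22 of 146 mitotic cells (left) and 12 of 372 cells with 0 UMIs of the defining genes (right) to its left.

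To compare how common mitotic cells were, each cell was thinned to 600 UMIs before the rule was applied. The share was then 14.4%, 9.38%, 11.3% and 7.19% in the yolk sac libraries and 14.3%, 17.7%, 14.5% and 16.0% in the brain libraries of the same age. The highest yolk sac library overlapped the brain range, and the other 3 lay below it. The means were 10.5% ± 3.04 and 15.6% ± 1.56 (SD, n = 4 each), a difference of −5.08 percentage points (two-sided exact permutation p = 0.0571, where 0.0286 is the smallest p possible). Without yolk sac library 1 the difference was −6.36 points, and among cells with 2 or more C1q UMIs it was −5.02, each at an exact permutation p of 0.0286. With the Plk1 row counted it was −4.26 points (exact permutation p = 0.114), and without brain library 2, 3 or 4 the exact permutation p was 0.0857. Yolk sac libraries 1 and 2 shared a sequencing batch with brain libraries 3 and 4, and within that batch the difference was −3.41 points (exact permutation p = 0.333, the smallest possible with 2 against 2). Before thinning the means were 23.4% ± 5.29 and 36.5% ± 8.59 (exact permutation p = 0.0857), with brain cells the deeper at a median of 1840 UMIs against 1565. The E18.5 brain libraries ranged from 6.21% to 16.0% and the adult ones from 0% to 1.43%.

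**Figure D2:**
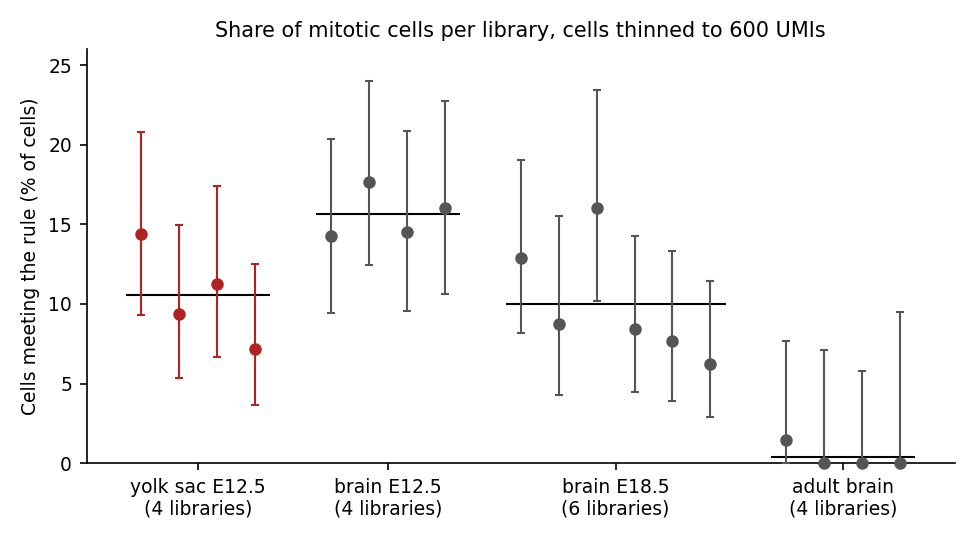
Share of cells that met the rule after thinning to 600 UMIs, in percent, for each of 18 libraries, with exact 95% binomial intervals (Clopper-Pearson, counting error only) and the mean of each group as a horizontal line. The 4 yolk sac libraries (red) lie between 7.19% and 14.4% and the 4 brain libraries of E12.5 between 14.3% and 17.7%.

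For expression, UMIs were summed per library over members and over reference cells, without the defining genes, and both sums were compared within library. Of 2216 genes tested, edgeR called 437 (19.7%) at an adjusted p under 0.05, with 210 higher (9.48%) and 227 lower (10.2%) in mitotic cells. The 4 member sums and the 4 reference sums did not overlap for 333 genes (15%), and the direction was the same in all 4 libraries for 750 (33.8%). The median log2 fold change over all tested genes was 0.0079. Among cells at or over the C1q limit 201 of 1958 genes were called, 96 higher and 105 lower, and 190 of these were among the 437. DESeq2 called 156 of the 437 and no others, 68 higher and 88 lower. Without the deepest member 415 were called, and against reference cells matched to the members' depth 377. A further fit left out every cell that held 2 or more UMIs of granulocyte precursor, neutrophil, progenitor, megakaryocyte or mast cell genes. These were 57 members and 102 reference cells. The fit then called 45 of 1036 genes, 24 higher and 21 lower. That removal was uneven, with 68 of 103 reference cells and 16 of 26 members of library 4 left out. Libraries 1 to 3 lost 6, 8 and 20 reference cells and 13, 9 and 19 members. When each cell was thinned to 600 UMIs, 75 of 716 were called. The classes were cut from the same cells' counts, so genes that vary with the defining genes from cell to cell can differ by construction, and the tests say only whether a difference repeats over libraries.

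Spindle and kinetochore genes outside the rule were higher in mitotic cells. Of 49 rows in this list, 10 passed the filter on low counts, 9 of them rose (9.48% of all tested genes did) and the other, Calm2, did not pass. The median log2 fold change of the 10 was 2.19. That filter keeps a gene that is high enough in the members alone. Rows near 0 in the reference were thus tested only where members were high, which favours a rise. With a filter of 10 or more UMIs over both classes, 24 of 35 rows rose, against 186 of all 7303 genes tested. Racgap1, which directs the contractile ring at the end of division, was at 250.4, 190.1, 103 and 198 CPM in members of libraries 1 to 4 and at 7.90, 7.31, 24.9 and 6.22 CPM in the reference. Every member sum lay above every reference sum (log2 fold change 3.74 with SE 0.52, edgeR adjusted p = 7.32e-11). The checkpoint kinase Bub1b was at 163, 190.1, 137 and 132 CPM in members and 0, 14.6, 12.4 and 18.7 CPM in the reference (log2 fold change 3.55 with SE 0.56, edgeR adjusted p = 9.87e-09). Tacc3, which stabilises spindle microtubules, was at 183 ± 38.6 CPM in members and 28.6 ± 20.5 CPM in the reference (SD, n = 4), a log2 fold change of 2.64 (SE 0.44). Cenpw, Cenpf and Cenpa of the centromere, Spc24 of the kinetochore and the checkpoint protein Bub3 also rose. Calm2, a calmodulin gene that is active in all cells, was at 602 ± 105 and 648 ± 131 CPM. With the C1q-low cells left out, 8 of 9 tested members rose, with a median of 2.41. DESeq2 called 2 of the 10 higher, at a median of 2.20. Without cells holding 2 or more UMIs of other lineages 2 of 3 tested rows rose.

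Of 31 rows of mitotic kinases, cyclins and their partners, 9 were tested and 4 rose. With the filter of 10 or more UMIs 11 of 25 rose. Cdca3, a trigger of mitotic entry, was at 425, 392, 171 and 346 CPM in members and 55.3, 14.6, 18.7 and 37.3 CPM in the reference (log2 fold change 3.32 with SE 0.35, edgeR adjusted p = 1.15e-18). Cks1b, a subunit of cyclin-dependent kinases, was at 250.4, 345, 239 and 313 CPM, against 86.9, 51.1, 80.9 and 37.3 CPM in the reference (log2 fold change 2.09 with SE 0.31, edgeR adjusted p = 1.29e-09). Cdk1, the kinase that drives mitosis, was at 119.7, 131, 228 and 181 CPM in members and 63.2, 43.8, 99.6 and 56.0 CPM in the reference (log2 fold change 1.27 with SE 0.36, edgeR adjusted p = 0.00432). For these 3 genes the classes did not overlap, and library 3 held the lowest member level of Cdca3 and Cks1b but the highest of Cdk1. The Lmnb1 row, for a protein of the nuclear lamina, was at 327, 226, 353 and 642 CPM, against 47.4, 36.5, 87.1 and 99.6 CPM in the reference (log2 fold change 2.44 with SE 0.29, edgeR adjusted p = 7.38e-15). Arpp19, a phosphatase inhibitor, was at 482 ± 160.4 and 382 ± 65.9 CPM (not called, edgeR adjusted p = 0.397). Ccna2 was at 12.7 ± 2.57 CPM in members, 4 UMIs in all, and was not tested. The same 4 genes passed among cells at or over the C1q limit.

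Proteins that fold, mark and separate chromosomes formed a large group of rises, with 17 of 23 tested rows higher and a median log2 fold change of 1.09. With the filter of 10 or more UMIs 18 of 39 rows rose. Ncapd2, a condensin subunit, was at 218, 154, 251 and 214 CPM in members and 23.7, 36.5, 6.22 and 18.7 CPM in the reference (log2 fold change 3.23 with SE 0.44, edgeR adjusted p = 2.51e-11). Hmgb2, a chromatin protein of proliferating cells, was at 588, 606, 661 and 559.8 CPM, against 94.8, 95.0, 74.7 and 106 CPM in the reference (log2 fold change 2.66 with SE 0.23, edgeR adjusted p = 1.71e-26). The levels of Hmgb2 lay close together within each class and far apart between them. H2afx, the histone variant that marks DNA breaks, was at 569.7 ± 108 and 87.3 ± 12.8 CPM (a log2 fold change of 2.63, SE 0.24). The row of H2afz and its near-identical relative H2afv was at 614 ± 129.6 and 339 ± 53.3 CPM (a log2 fold change of 0.81, SE 0.19). The row of the replacement histones H3f3a and H3f3b was at 932 ± 97.8 and 907 ± 135 CPM (not called, edgeR adjusted p = 0.987). In the cells at or over the C1q limit 12 of 21 tested rows rose.

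DNA replication genes were higher in mitotic cells too, with 12 of 17 tested rows called (59 rows in the list) and a median log2 fold change of 1.21. With the filter of 10 or more UMIs over both classes 53 rows were tested, and 12 rose. The Dut row, for the enzyme that keeps uracil out of DNA, was at 250.4, 202, 148 and 247 CPM in members and 79.0, 29.2, 12.4 and 31.1 CPM in the reference (log2 fold change 2.46 with SE 0.39, edgeR adjusted p = 9.81e-09). Fen1, which trims the flaps of lagging-strand fragments, was at 196, 95.1, 103 and 132 CPM, against 23.7, 21.9, 12.4 and 37.3 CPM in the reference (log2 fold change 2.36 with SE 0.51, edgeR adjusted p = 8.16e-05). Tk1, the thymidine kinase of S phase, was at 196, 202, 228 and 231 CPM, against 31.6, 51.1, 43.6 and 62.2 CPM in the reference (log2 fold change 2.12 with SE 0.36, edgeR adjusted p = 1.02e-07). The classes did not overlap for these 3 genes. The helicase subunits Mcm2, Mcm3, Mcm5, Mcm6 and Mcm7 and the ligase Lig1 rose as well, and they are named here after their values were seen. Pcna, the sliding clamp, was at 131, 131, 137 and 231 CPM, against 71.1, 80.4, 118 and 80.9 CPM in the reference and was not called (a log2 fold change of 0.76, edgeR adjusted p = 0.1), nor was the histone chaperone Nasp at 278 ± 55.5 and 185 ± 50.5 CPM.

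The replication genes were highest in the members of low C1q share, at 9415 CPM over the 22 cells, against 4327 CPM in the other 124 members. Reference cells were at 4912 CPM in the 12 under the limit and at 2155 CPM in those at or over it. In brain, too, cells under the limit were higher than those at or over it. The levels there were 7281 and 4320 CPM in members and 4444 and 2989 CPM in reference cells. Spindle genes, counted without the defining ones, were at 3652 CPM in the 22 yolk sac members and 5369.9 CPM in the other 124. Without the C1q-low cells 8 replication rows were tested and 4 rose, and the Dut row and Fen1 were no longer tested. DESeq2 called 6 of 17 replication rows higher. Without cells holding 2 or more UMIs of other lineages 1 replication row was tested, and it did not pass. After thinning to 600 UMIs, 58.7%, 64.7%, 65.0% and 53.8% of members held 2 or more replication UMIs, against 27.9%, 32.0%, 29.1% and 35.9% of reference cells. The range of members lay above that of the reference, and cells with 1 defining UMI were at 36.0% to 48.3%.

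Replication-dependent histone genes, whose transcripts mostly end in a stem-loop and not in a poly(A) tail, were caught in part, since 17 of 61 rows were at 0. Of 9 tested rows 7 rose and 1 fell, with a median log2 fold change of 2.58. With the filter of 10 or more UMIs 9 of 18 rose and 1 fell. The linker histone Hist1h1b was at 446, 725, 1117 and 379 CPM in members and 94.8, 36.5, 80.9 and 49.8 CPM in the reference (log2 fold change 3.28 with SE 0.25, edgeR adjusted p = 3.42e-35). Hist1h1d was at 98.0, 119, 376 and 132 CPM, against 0, 0, 31.1 and 31.1 CPM in the reference, with library 3 far above the other 3 (a log2 fold change of 3.40, SE 0.50). Hist1h2ae was at 271 ± 84.5 and 25.0 ± 9.07 CPM, while Hist1h2bc, at 230.4 ± 58.1 and 207 ± 77.4 CPM, did not pass. The row that fell joins Hist3h2a with Trim17. Histone genes are near-identical to each other, so reads may be split between them. Among cells at or over the C1q limit 2 of 5 tested rows rose and the median was 0.85.

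Of 13 tested tubulin and microtubule genes 5 rose. Tuba1b, an alpha-tubulin of the spindle, was at 2994, 2674, 2017 and 3375 CPM in members and 979.6, 884, 784 and 902 CPM in the reference (log2 fold change 1.58 with SE 0.12, edgeR adjusted p = 3.62e-34), and Tubb5, a beta-tubulin, at 1720.0, 1616, 1584 and 1910.0 CPM, against 577, 650.2, 728 and 609.9 CPM in the reference (log2 fold change 1.36 with SE 0.14, edgeR adjusted p = 9.96e-21). The classes were far apart in every library for both. Nudc, a partner of the motor dynein, rose from 113 ± 5.70 to 363 ± 112 CPM, and Tubb2a, at 476 ± 99.0 in the reference and 596 ± 119.7 CPM in members, did not pass. Stmn1, which takes microtubules apart, was at 91.8 ± 78.1 and 32.9 ± 20.7 CPM and was not tested.

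**Figure D3:**
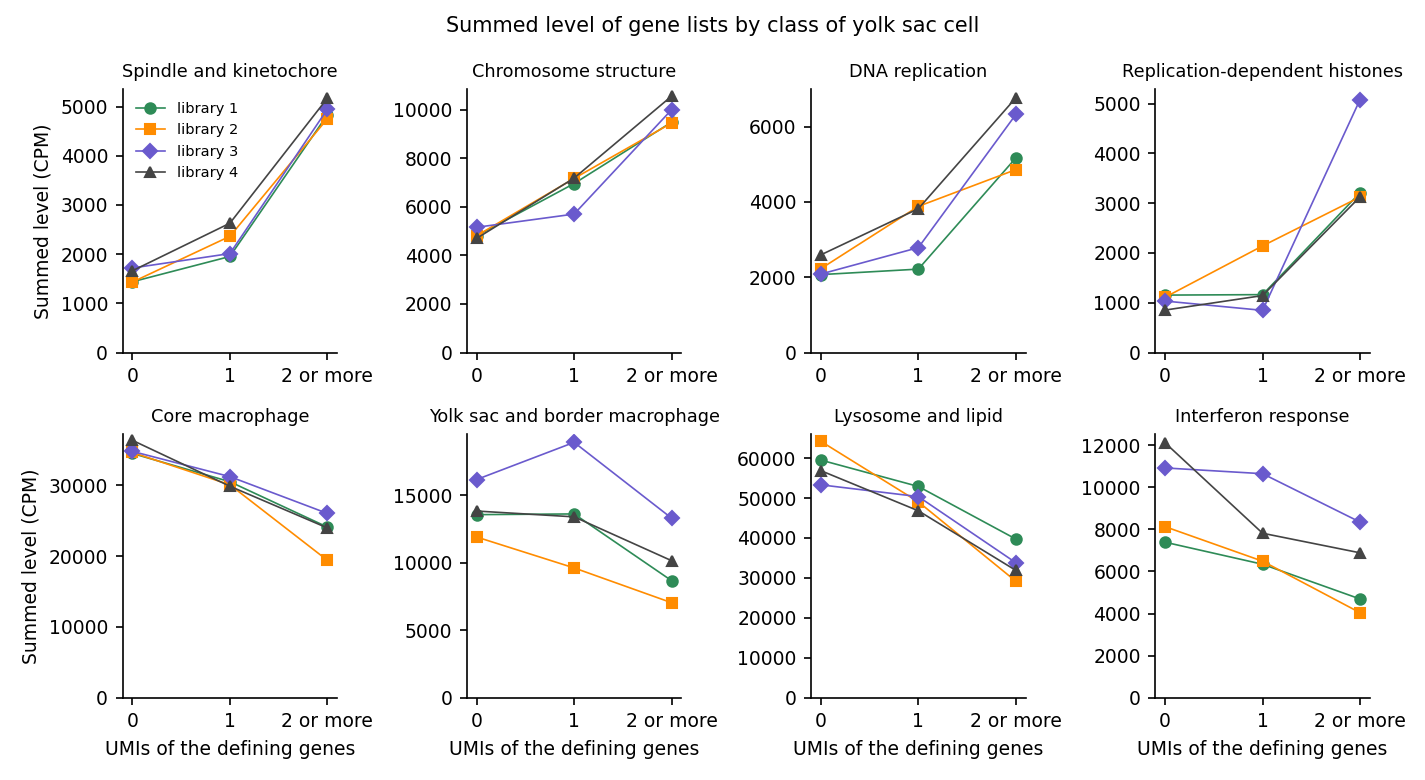
Summed level in CPM of 8 gene lists in yolk sac cells with 0, 1 and 2 or more UMIs of the defining genes, 1 line for each of 4 libraries. The spindle, chromosome, replication and histone lists are higher in members in every library, and the macrophage, lysosome and interferon lists are lower in members than in the 0-UMI cells.

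The promoters of the spindle, kinase and cyclin genes that rose are shown because most of their start sites hold CCAAT, a motif bound by NF-Y, and some also hold TTTGAA, bound by the DREAM and B-MYB complexes. Both motifs are known from genes of G2 and mitosis. The 150 bases before each start site were taken from RefSeq (build GRCm38.p6, which is not the build of the files) and searched on both strands. Promoters were found for 11 of the 13 genes, with 12 start sites. CCAAT was in 10 of 12 of these (83.3%), in 13 of 22 start sites of rising chromosome structure genes (59.1%), in 7 of 16 of rising replication genes (43.8%) and in 9 of 49 of macrophage, yolk sac, lysosome and interferon genes that fell (18.4%). Among all start sites searched it was in 24.5%, and among those of all tested genes in 27.6%. Among those of all genes that rose it was in 93 of 227 (41.0%), near the share of the replication genes, and of all genes that fell in 24.2%. TTTGAA was in 4 of 12, 3 of 22, 2 of 16 and 4 of 49 start sites of the same 4 sets, and in 9.07% of all start sites. It was in 5.43% of the start sites of all tested genes and 8.37% of those of all genes that rose. These are letter matches and not sites shown to be bound.

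Below are the 150 bases before the start of Cdk1 at chr10:69352913-69353062 (minus strand), Cks1b at chr3:89418292-89418441 (minus strand), Cdca3 at chr6:124830026-124830175 (plus strand), Cenpf at chr1:189688087-189688236 (minus strand) and Hmgb2 at chr8:57511693-57511842 (plus strand), which rose, and for contrast of Dut at chr2:125247365-125247514 (plus strand), which rose, and Pltp at chr2:164857709-164857858 (minus strand), which fell. Each is written 5′ to 3′ on the strand of its gene, with CCAAT or ATTGG and TTTGAA or TTCAAA in capitals.
Cdk1: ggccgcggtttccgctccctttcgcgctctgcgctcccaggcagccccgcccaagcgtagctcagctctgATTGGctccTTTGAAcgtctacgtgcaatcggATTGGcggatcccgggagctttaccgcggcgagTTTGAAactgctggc
Cks1b: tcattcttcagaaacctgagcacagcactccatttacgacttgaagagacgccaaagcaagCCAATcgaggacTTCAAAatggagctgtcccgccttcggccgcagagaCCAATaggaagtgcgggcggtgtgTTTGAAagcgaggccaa
Cdca3: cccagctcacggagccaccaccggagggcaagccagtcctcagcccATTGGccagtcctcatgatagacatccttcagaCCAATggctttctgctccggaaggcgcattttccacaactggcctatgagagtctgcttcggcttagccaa
Cenpf: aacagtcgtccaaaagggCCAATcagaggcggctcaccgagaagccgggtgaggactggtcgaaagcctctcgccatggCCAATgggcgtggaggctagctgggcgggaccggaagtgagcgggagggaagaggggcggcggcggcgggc
Hmgb2: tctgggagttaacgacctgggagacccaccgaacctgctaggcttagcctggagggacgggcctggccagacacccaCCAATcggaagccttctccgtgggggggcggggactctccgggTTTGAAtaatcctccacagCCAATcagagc
Dut: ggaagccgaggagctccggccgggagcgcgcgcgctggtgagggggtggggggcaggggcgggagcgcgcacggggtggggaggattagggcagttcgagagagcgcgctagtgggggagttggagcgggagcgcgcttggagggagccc
Pltp: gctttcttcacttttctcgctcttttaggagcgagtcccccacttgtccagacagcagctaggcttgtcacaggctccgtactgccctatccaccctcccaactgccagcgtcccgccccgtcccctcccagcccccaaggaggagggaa
Cdk1 and Cks1b hold 2 matches of each motif, Hmgb2 holds 2 of CCAAT and 1 of TTTGAA, and Cdca3 and Cenpf hold 2 of CCAAT alone. Dut and Pltp hold neither in this window, but they do not stand for their sets. Mcm3, Mcm5 and Mcm6 of the rising replication genes hold CCAAT, and so do Cd68, Pf4 and Stat2, which fell. Tacc3, which rose, holds neither motif.

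Of 23 rows of genes for cell cycle entry and arrest, 5 were tested, 1 rose and 1 fell. Cdk4, the kinase of D-type cyclins, was at 936, 665, 342 and 675 CPM in members and 435, 431, 274 and 255 CPM in the reference (log2 fold change 0.83 with SE 0.19, edgeR adjusted p = 1.52e-04). Cdkn1a, the p53 target that stops cyclin-dependent kinases, was at 43.5, 47.5, 205 and 148 CPM, against 189.6, 124, 243 and 299 CPM in the reference (log2 fold change −1.01 with SE 0.31, edgeR adjusted p = 0.00873). It was lower in members in all 4 libraries, but the call was lost without library 1 or library 4 and among cells at or over the C1q limit (edgeR adjusted p = 0.175). Btg1, an antiproliferative gene, was at 109 ± 19.1 and 184 ± 13.3 CPM (not called, edgeR adjusted p = 0.0573). The cyclin Ccnd1 was at 107 ± 57.4 and 81.3 ± 56.5 CPM and was not called. The Ccnd2 row, at 119.7, 214, 57.0 and 98.8 CPM in members and 47.4, 36.5, 6.22 and 18.7 CPM in the reference, and the inhibitor Cdkn1b, with 3 and 6 UMIs, were not tested.

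Transcripts of macrophage function were lower in mitotic cells. Of 21 tested core macrophage rows 13 fell and none rose (background 10.2% lower), with a median log2 fold change of −0.63, and 12 of 20 fell in the same contrast in brain. Fcgr1, the high-affinity Fc receptor, was at 708, 535, 1242 and 1153 CPM in members and 1398, 1381, 2042 and 2514 CPM in the reference (log2 fold change −1.06 with SE 0.13, edgeR adjusted p = 1.50e-13). C1qc was at 2602, 2186, 2587 and 2783 CPM, against 4551, 4529.6, 4339 and 4530.5 CPM in the reference (log2 fold change −0.87 with SE 0.10, edgeR adjusted p = 2.47e-14), and C1qa at 1252, 1093, 1390.3 and 1614 CPM, against 2591, 2126, 2023 and 2508 CPM in the reference (log2 fold change −0.84 with SE 0.12, edgeR adjusted p = 2.54e-10). Every member sum of these 3 genes lay below every reference sum. Csf1r, the receptor of the macrophage growth factor Csf1, was at 2994, 2555, 2587 and 2009 CPM, against 4369, 4339.7, 3274 and 3249 CPM in the reference (log2 fold change −0.63 with SE 0.11, edgeR adjusted p = 1.21e-07). The inhibitory Fc receptor Fcgr2b was at 62.5 ± 51.2 and 178 ± 40.5 CPM (a log2 fold change of −1.49, SE 0.36), and the kinase Lyn, at 535 ± 125 and 651 ± 62.0 CPM, did not pass.

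The size of these falls moved with the C1q-low members. With the C1q-low cells left out, 10 of 21 core macrophage rows fell and the median was −0.33, with Csf1r at −0.35 (edgeR adjusted p = 0.00662) and Fcgr1 at −0.78 (edgeR adjusted p = 2.65e-07). That limit is set on C1q itself, so the values of C1qa, C1qb and C1qc within it are not independent of it. Core macrophage transcripts also moved with the number of defining UMIs, at 29041 ± 2845 CPM in the 62 members with 2 or 3 and 20331 ± 3485 CPM in the 84 with 4 or more (SD, n = 4 libraries). Of these, 5 and 17 cells were under the C1q limit. In the median member of each library the list took 2.64% to 2.90% of UMIs, and in the median reference cell 3.48% to 3.73%.

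The genes of the sort gate gave no call. Ptprc, which encodes CD45, was at 163, 166, 285 and 148 CPM in members and 166, 219, 261 and 149 CPM in the reference (log2 fold change −0.11 with SE 0.27, edgeR adjusted p = 0.832). Itgam, which encodes CD11B, was at 54.4, 95.1, 285 and 346 CPM, against 158, 124, 373 and 268 CPM in the reference (not called, edgeR adjusted p = 0.393). Cx3cr1 was at 43.5, 59.4, 103 and 313 CPM, against 31.6, 51.1, 124 and 87.1 CPM in the reference, 37 and 45 UMIs in all, and was not tested. Both classes of Itgam and Cx3cr1 were higher in libraries 3 and 4, which lay on another plate than libraries 1 and 2. The sequencing batch split these libraries in the same way, so plate and batch cannot be told apart.

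Genes typical of yolk sac and border macrophages split. Of 19 tested rows 13 fell, 2 rose (Lyve1 and Ccl2) and the median log2 fold change was −0.56. Pltp, a lipid transfer protein, was at 76.2, 83.2, 91.2 and 16.5 CPM in members and 182, 365, 199 and 268 CPM in the reference (log2 fold change −1.86 with SE 0.33, edgeR adjusted p = 3.63e-07). Ms4a7, a membrane protein of mature macrophages, was at 174, 131, 171 and 279.9 CPM, against 537, 482, 442 and 585 CPM in the reference (log2 fold change −1.51 with SE 0.22, edgeR adjusted p = 7.78e-10). The lectin Clec10a was at 272, 214, 182 and 115 CPM, against 695, 555, 398 and 286 CPM in the reference (log2 fold change −1.34 with SE 0.22, edgeR adjusted p = 5.09e-08). Every member sum was below every reference sum for Pltp, Ms4a7 and Clec10a. The mannose receptor Mrc1 was at 196, 83.2, 1276 and 774 CPM, against 189.6, 183, 1226 and 678 CPM in the reference (log2 fold change −0.057 with SE 0.18, edgeR adjusted p = 0.874). The plate, with its sequencing batch, and not the class separated the values of Mrc1. Dab2, an endocytic adaptor, was at 1045 ± 277 and 1223 ± 210.3 CPM and was not called.

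Lyve1, the hyaluronan receptor, was at 21.8, 35.6, 741 and 98.8 CPM in members and 31.6, 29.2, 237 and 99.6 CPM in the reference (log2 fold change 0.97 with SE 0.33, edgeR adjusted p = 0.0233). Library 3 alone was clearly higher in members. The gene fell under the filter without library 3 or without library 4, and it was not called by DESeq2 (adjusted p = 0.663) or limma (adjusted p = 0.612). The chemokine Pf4 was at 2014, 1889, 3009 and 2651 CPM, against 3523, 2966, 3175 and 3261 CPM in the reference (log2 fold change −0.50 with SE 0.11, edgeR adjusted p = 8.88e-05), and among cells at or over the C1q limit its log2 fold change was −0.13 (edgeR adjusted p = 0.484). In that comparison 5 of 18 rows of the list fell and 1 rose, with a median of −0.40, and Pltp, Ms4a7 and Clec10a kept their falls at −1.54, −1.17 and −0.94.

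Lysosomal and lipid handling genes were lower in members, with 13 of 26 tested rows fallen and none risen (median log2 fold change −0.53). Apoe, the lipid carrier that macrophages secrete, was at 15251, 10825, 12707 and 12036 CPM in members and 28291, 30159, 23623 and 26094 CPM in the reference (log2 fold change −1.14 with SE 0.09, edgeR adjusted p = 3.62e-34). The highest member library was far below the lowest reference library. Grn, the precursor of lysosomal granulins, was at 2613, 1664, 2484 and 2091 CPM, against 3649.9, 4296, 3816 and 3883 CPM in the reference (log2 fold change −0.87 with SE 0.11, edgeR adjusted p = 1.49e-13). The tetraspanin Cd63 was at 147 ± 77.1 and 293 ± 53.9 CPM (a log2 fold change of −1.08, SE 0.27). The protease Ctss was at 739 ± 248 and 907 ± 157 CPM and was not called (edgeR adjusted p = 0.0762). In the cells at or over the C1q limit 8 of 25 rows fell, with a median of −0.39 and Apoe at −0.76 (edgeR adjusted p = 6.27e-22).

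Interferon response genes were lower as well, with 11 of 17 tested rows fallen, 1 risen and a median of −0.74. Isg15, a ubiquitin-like modifier, was at 32.7, 11.9, 274 and 329 CPM in members and 166, 278, 579 and 678 CPM in the reference (log2 fold change −1.53 with SE 0.24, edgeR adjusted p = 2.24e-08). Irf7, the factor that amplifies the response, was at 32.7, 95.1, 467 and 279.9 CPM, against 300.2, 365, 735 and 560.1 CPM in the reference (log2 fold change −1.30 with SE 0.22, edgeR adjusted p = 1.89e-07). For both, libraries 3 and 4 were above libraries 1 and 2 in either class, and members were below the reference inside each library, so the classes overlapped only across plates. Ifitm1 rose, at 174, 119, 649.6 and 49.4 CPM, against 23.7, 43.8, 286 and 12.4 CPM in the reference (log2 fold change 1.48 with SE 0.32, edgeR adjusted p = 9.15e-05). Without the C1q-low cells 9 of 15 rows fell, the median was −0.59, and Ifitm1 was not tested. None of 4 tested immediate early rows passed, with the chemokine row of Ccl3 at 244 ± 102 CPM in members and 279 ± 31.3 CPM in the reference. None of 9 antigen presentation rows passed either, with a median of −0.33 and the H2-D1 row at 492 ± 148 and 602 ± 227 CPM. The counts of these 4 lists were smaller still without the cells that held 2 or more UMIs of other lineages. There 45 of 1036 tested genes were called, 21 of them lower. In that fit 2 of 19 core macrophage rows (median −0.19), 1 of 13 yolk sac and border macrophage rows (median −0.33), 2 of 18 lysosomal rows (median −0.24) and 4 of 12 interferon rows (median −0.57) fell. With no replicate block 7 of 21, 5 of 19, 6 of 26 and 4 of 17 rows fell, against 82 of all 2216 tested genes. Without the deepest member, 10 core macrophage, 11 yolk sac and border macrophage, 11 lysosomal and 10 interferon rows fell, and 4 respiratory chain rows rose in place of 5, while the counts of rows called in the other lists described here were the same.

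**Figure D4:**
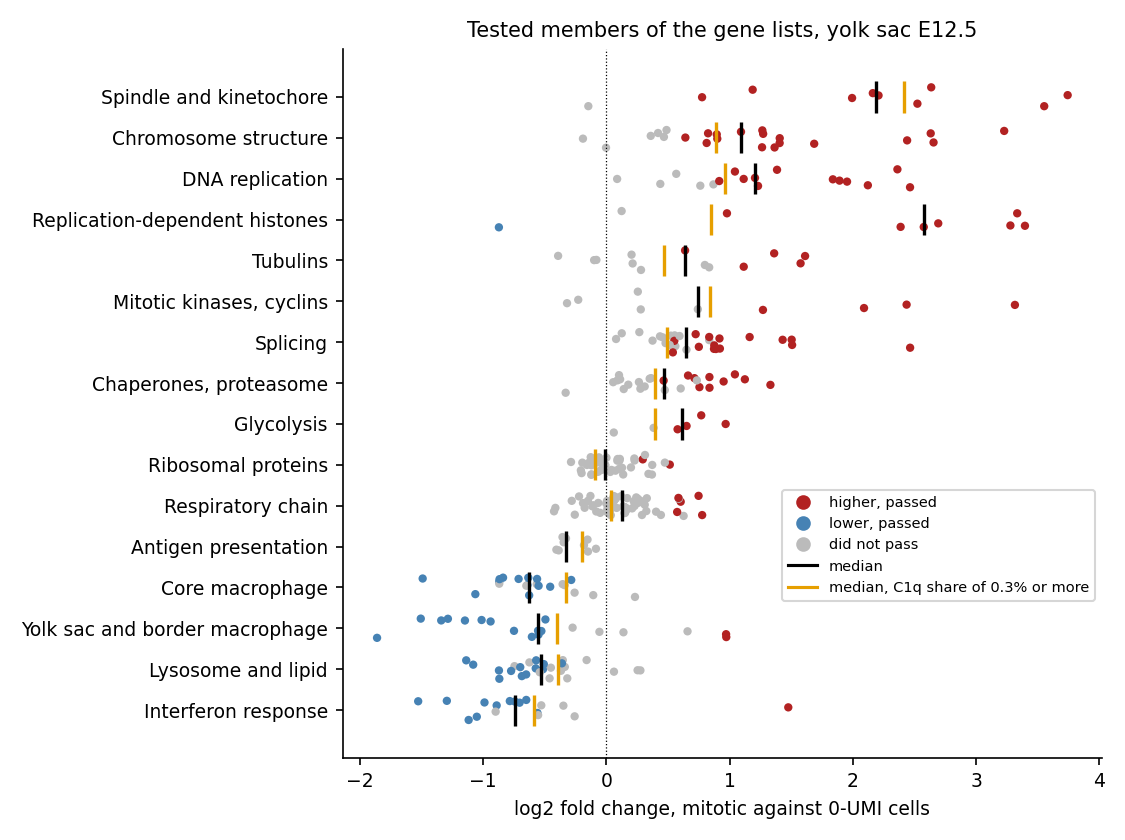
Log2 fold change of each tested member of 16 gene lists in yolk sac, mitotic against 0-UMI cells, with members that passed at an edgeR adjusted p under 0.05 in red (higher) or blue (lower) and the others in grey. Black bars are the list medians and orange bars the medians among cells with a C1q share of 0.3% or more, which for the core macrophage list are −0.63 and −0.33.

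Genes of RNA processing and protein production gave a mixed picture. Of 29 tested splicing rows 15 rose, with a median log2 fold change of 0.65. The helicase Ddx39 was at 196, 238, 103 and 115 CPM in members and 15.8, 14.6, 12.4 and 68.5 CPM in the reference (log2 fold change 2.47 with SE 0.45, edgeR adjusted p = 1.36e-06), and the Srsf7 row, for a splicing factor, at 288 ± 84.6 and 99.9 ± 49.9 CPM (a log2 fold change of 1.51, SE 0.29). The Hnrnph1 row rose too, while Sf3b2, at 544 ± 97.4 and 384 ± 73.0 CPM, did not pass. Of 25 chaperone and proteasome rows 10 rose (median 0.46), led by the mitochondrial chaperonin Hspd1 at 269.5 ± 125 against 98.8 ± 27.5 CPM, Psmc1 of the proteasome at 241 ± 94.1 against 106 ± 38.3 CPM and Cct3 of the folding complex for tubulin and actin at 411 ± 64.6 against 192 ± 45.3 CPM. Hspa8, the constitutive heat shock protein, was at 2599.7 ± 279.7 and 2422 ± 174 CPM. Among cells at or over the C1q limit 6 of 26 splicing rows and 7 of 25 chaperone and proteasome rows rose.

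Of 43 ribosomal protein rows 2 rose and the median was −0.0097. The Rps2 row was at 3995, 4337, 2986 and 3096 CPM in members and 3215, 3054, 1917 and 1749 CPM in the reference (log2 fold change 0.51 with SE 0.11, edgeR adjusted p = 2.50e-05). Rpl4 (a log2 fold change of 0.29, edgeR adjusted p = 0.0299) did not keep its call without library 2, 3 or 4 or among cells at or over the C1q limit, and Rplp1, at 6756 ± 469.9 and 7158 ± 994 CPM, did not pass. Of 20 rows of the nucleolus and of translation factors 6 rose, among them Nop58, a guide protein of ribosomal RNA modification, Eif5a (a log2 fold change of 0.83, SE 0.14) and Eef1g (a log2 fold change of 0.77, SE 0.15). Eef2, at 2409 ± 191 and 2109 ± 485 CPM, did not pass, and Nop58 lost its call without library 1, 2 or 4. Of 6 glycolytic rows 4 rose, with Ldha, lactate dehydrogenase, at 1197, 1319, 1003 and 889 CPM in members and 514, 497, 691 and 473 CPM in the reference (log2 fold change 0.97 with SE 0.15, edgeR adjusted p = 5.18e-09) and Pkm2, pyruvate kinase, at 1197 ± 261 and 676 ± 130.1 CPM. Ldha lost its call among cells at or over the C1q limit (edgeR adjusted p = 0.06). The Eno1 row rose and lost its call without library 2, and Gpi1 did not pass. Of 62 respiratory chain rows 5 rose with a median of 0.13, a share under the 9.48% of all tested genes that were higher. Ndufv1, Atp5a1 and Atp5b were among the 5, and Cox4i1 did not pass. Ndufv1 lost its call without library 2, 3 or 4 and Atp5a1 without library 1. With the C1q-low cells left out, 96 of 1958 tested genes were higher, among them 1 of 6 glycolytic, 1 of 61 respiratory and 2 of 19 nucleolar or translation rows, and of 42 ribosomal protein rows 1 rose and 2 fell. Without cells holding 2 or more UMIs of other lineages, 0 of 18 chaperone and proteasome, 0 of 17 nucleolar or translation and 0 of 5 glycolytic rows rose. Of all 1036 genes tested there 24 were higher, so 0 of so few rows does not set these lists apart. In that fit 3 of 12 splicing, 4 of 11 chromosome structure and 3 of 8 tubulin rows rose. DESeq2 called 68 of all 2216 tested genes higher. Among these were 4 of 25 chaperone and proteasome, 2 of 20 nucleolar or translation and 3 of 6 glycolytic rows. Of splicing, chromosome structure and tubulin rows it called 6 of 29, 11 of 23 and 4 of 13 higher.

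Outside the lists, the largest rises were of Nde1, Csda, Ptma, Syce2, Ranbp1 and Stip1. Ptma, prothymosin alpha, which is abundant in proliferating cells, was at 316, 345, 569.8 and 609 CPM in members and 86.9, 168, 137 and 162 CPM in the reference (log2 fold change 1.68 with SE 0.23, edgeR adjusted p = 7.39e-11). Ranbp1, a regulator of the Ran cycle of nuclear transport and spindle assembly, was at 425, 665, 649.6 and 642 CPM, against 189.6, 175, 255 and 224 CPM in the reference (log2 fold change 1.44 with SE 0.20, edgeR adjusted p = 7.54e-11). Nde1, a dynein partner at the centrosome, was at 169.8 ± 71.5 and 49.1 ± 33.4 CPM (a log2 fold change of 1.75, SE 0.39). Csda, a cold shock domain protein, was at 315 ± 113 and 87.5 ± 33.4 CPM, and among cells at or over the C1q limit its log2 fold change was 0.78 (edgeR adjusted p = 0.179). Syce2 had a log2 fold change of 1.54 (SE 0.47) and the co-chaperone Stip1 of 1.41 (SE 0.32).

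The largest falls were of Fxyd2, Phyhd1, Wwp1, Cfb, Dcxr and Ypel3. Cfb, complement factor B of the alternative pathway, was at 76.2, 35.6, 205 and 247 CPM in members and 261, 343, 467 and 535 CPM in the reference (log2 fold change −1.60 with SE 0.25, edgeR adjusted p = 7.01e-09). Dcxr, a xylulose reductase, was at 196, 143, 79.8 and 98.8 CPM, against 403, 409, 349 and 373 CPM in the reference (log2 fold change −1.60 with SE 0.25, edgeR adjusted p = 1.00e-08). Ypel3 was at 163, 166, 182 and 49.4 CPM, against 466, 592, 311 and 317 CPM in the reference (log2 fold change −1.58 with SE 0.24, edgeR adjusted p = 3.62e-09). The classes did not overlap for Cfb, Dcxr and Ypel3, and among cells at or over the C1q limit their falls were −1.24, −1.21 and −1.23. Fxyd2, a modulator of the sodium pump, fell from 134 ± 29.4 to 33.7 ± 8.57 CPM, Phyhd1 from 208 ± 32.8 to 62.0 ± 55.3 CPM and the ubiquitin ligase Wwp1 from 242 ± 60.7 to 83.4 ± 62.0 CPM.

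Among markers of other lineages 4 rows were tested. Prtn3, proteinase 3 of granulocyte precursors, was at 261, 737, 182 and 576 CPM in members and 55.3, 65.8, 31.1 and 168 CPM in the reference (log2 fold change 2.40 with SE 0.27, edgeR adjusted p = 7.64e-16), and 120 of its 137 UMIs in members were in the 22 cells under the C1q limit. Mpo, myeloperoxidase, was at 359, 475, 239 and 576 CPM, against 71.1, 14.6, 156 and 348 CPM in the reference and was not called (log2 fold change 1.53 with SE 0.47, edgeR adjusted p = 0.0502). Elane did not pass, and the embryonic globin Hbb-y was at 87.1, 3672, 159.5 and 98.8 CPM, against 23.7, 1162, 230.3 and 280.0 CPM in the reference (not called, edgeR adjusted p = 0.459). The value of library 2 holds the deepest member described above.

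The same contrast was made in E12.5 brain, with 249 mitotic and 292 reference cells, where edgeR called 194 of 2558 genes (7.58%), 98 higher (3.83%) and 96 lower (3.75%). Of the yolk sac lists, 8 of 10 spindle and kinetochore genes, 13 of 23 chromosome structure genes and 4 of 15 replication genes rose in brain, and 12 of 25 lysosomal and lipid genes fell. In brain 0 of 7 tested yolk sac and border macrophage rows and 1 of 5 tested interferon rows fell, at medians of −0.34 and −0.45. The 2 lists summed to means of 2025 and 2617 CPM in brain reference cells, against 13851 and 9632 CPM in yolk sac. So few rows cannot show whether these falls are particular to yolk sac. The test of the difference itself, the interaction of class and tissue, passed for 33 of 3038 genes (1.09%), with 11 where the yolk sac difference was the more positive (0.362%) and 22 where it was the more negative (0.724%). With another scaling (the relative log expression factors of edgeR) the split was 14 and 15. Of the 33, 22 had fallen and 7 had risen in yolk sac, and 15 of those that fell were not called in brain, 2 of them untested there. In the cells at or over the C1q limit in both tissues 2 passed, the metallothionein Mt1 and the interferon gene Ifi27l2a. Without brain library 1 there were 5, without brain library 2 there were 14, without brain library 4 there were 21 and without yolk sac library 2 there were 12. DESeq2 called 1, and edgeR with no library block called 0 (186 genes at an unadjusted p under 0.05).

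A replication row and a lamina row were among the differences that passed. The Dut row was at 212 ± 47.9 CPM in yolk sac members and 128 ± 46.7 CPM in brain members, with reference levels of 37.9 ± 28.6 and 103 ± 66.9 CPM, and log2 fold changes of 2.46 and 0.34 (interaction 2.03, edgeR adjusted p = 0.0201). The Lmnb1 row rose in both tissues, by 2.44 and 0.80 on the log2 scale (interaction 1.55, edgeR adjusted p = 0.0115). Apoe fell in both, with log2 fold changes of −1.14 in yolk sac and −0.55 in brain (interaction −0.67, edgeR adjusted p = 3.57e-04), and so did Grn at −0.87 and −0.35 (interaction −0.61, edgeR adjusted p = 0.0143). Mt1, which binds metals, had log2 fold changes of −0.82 and 0.37 (interaction −1.28, edgeR adjusted p = 2.07e-07). The folate receptor Folr2 fell in yolk sac at −1.29 and was at 19.9 ± 9.88 and 4.99 ± 6.58 CPM in brain members and reference, on 16 and 3 UMIs (interaction −3.03, edgeR adjusted p = 0.0245). Napsa, Gnl2 and Nup210 had interactions of 2.68, 2.22 and 2.20, on 13, 16 and 10 UMIs in the yolk sac reference. C1q-low cells were 22 of 146 members and 12 of 372 reference cells in yolk sac, and 19 of 249 and 13 of 292 in brain.

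**Figure D5:**
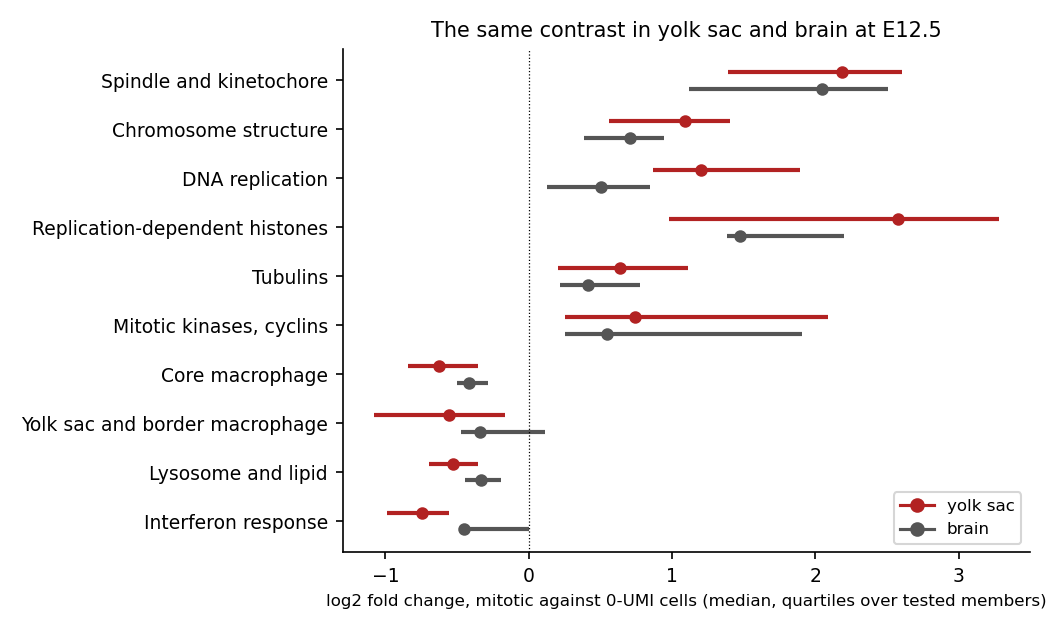
Median (point) and quartiles (line) of the log2 fold changes, mitotic against 0-UMI cells, over the tested members of 10 gene lists in yolk sac (red) and brain (grey) at E12.5. Brain values cover only the rows tested in both tissues. These were 15 of 17 for replication, 7 of 19 for yolk sac and border macrophage, 5 of 17 for interferon and 20 of 21 for core macrophage. The replication list has medians of 1.21 and 0.51 and the core macrophage list of −0.63 and −0.41.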

How the data were processed

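The authors deposited UMI counts per gene and well, whole numbers that were not normalized, with a well annotation. Per the submitters' processing notes, bcl2fastq 2.15.0.4 and build mm9 were used. How reads were aligned and UMIs collapsed is not given in the sources used here. Of 27297 gene rows 2109 join several symbols, which cannot be told apart, and the highest count was 256.

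Wells with 1 sorted cell and at least 600 UMIs were kept, 624 of 760 in yolk sac, with 262772 to 305387 UMIs per library. No well and no pair of pool and cell barcode was shared between libraries, and 125 to 136 cell barcodes were. Members, gene lists and the rule for named genes were chosen with earlier results of these data known.

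UMIs were summed per library and class, without the rows of the defining genes, and tested with edgeR 4.0.16 in R 4.3.3 (TMM factors, filterByExpr, robust quasi-likelihood F-test, Benjamini-Hochberg adjustment). The library was a block, because both classes come from the same library. The interaction was fitted over yolk sac and E12.5 brain together. Shares were compared by exact permutation of libraries. Levels are CPM, given per library or as mean ± SD. DESeq2 1.42.0 and limma 3.58.1, on log2(CPM + 10), served as alternatives. The tests were tried on simulated counts.

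From each list the called genes with the 3 largest changes and the most abundant gene that did not pass were named. Outside the lists the 6 largest rises and falls with 100 CPM or more and 1 direction in all libraries were named, with the 5 largest interactions and a fixed set of cell cycle, sort gate and macrophage genes. Other names were chosen after their values were seen. A gene that this rule names is not reported here.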

Additional observations from a re-analysis of the deposited data

Results flagged for a closer look

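For 8 of 103 named genes 1 yolk sac library stood apart from the other 3 in its level in mitotic cells, by Dixon's criterion, which chance meets in about 1 in 20 groups. Library 1 was low for Nudc (196 CPM) and Ranbp1 (425 CPM). Library 2 was high for the embryonic globin Hbb-y (3672 CPM), which holds the deepest member. Library 3 was high for Hist1h1d (376 CPM), Ptprc (285 CPM) and Lyve1 (741 CPM). Library 4 was high for Pcna (231 CPM) and low for Ypel3 (49.4 CPM). Among adult brain libraries 1 met the criterion with a share of mitotic cells of 1.43%, which is 1 cell of 70 against 0 in the other 3, where any single cell meets it, so no library is shown to differ.

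The difference between mitotic and reference cells itself differed between yolk sac and E12.5 brain for named genes, by the interaction test in edgeR. It was more positive in yolk sac for the Lmnb1 row (1.55 on the log2 scale), the Dut row (2.03), the Rps2 row (0.47), Napsa (2.68), Gnl2 (2.22) and Nup210 (2.20). It was more negative for Apoe (−0.67), Grn (−0.61) and Folr2 (−3.03). None of these 9 was called among cells with a C1q share of 0.3% or more, where Mt1 and Ifi27l2a were the 2 genes called.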

How the results depend on the processing

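Of 2216 genes tested between mitotic and reference yolk sac cells 437 were called. DESeq2 called 156, the fit with no replicate block (no pairing of the classes by library) 178 and cells thinned to 600 UMIs 75. Cells with under 2 UMIs of other lineages, where erythroid, endothelial, endoderm and monocyte genes were not counted, gave 45. Cells with a C1q share of 0.3% or more gave 201, and the plates alone 167 (replicates 1 and 2) and 216 (replicates 3 and 4). Leaving out 1 library gave 322 to 412, and counting the Plk1 row gave 334. With a filter of 10 or more UMIs 512 of 7303 genes were called, and the split moved to 186 higher and 326 lower. For the interaction, with 33 genes called, DESeq2 called 1, thinned cells 2, cells with 2 or more C1q UMIs 11 and the count with the Plk1 row 3. Cells with under 2 UMIs of other lineages gave 1 and cells with a C1q share of 0.3% or more 2. With no replicate block edgeR called 0, with 186 at an unadjusted p under 0.05. Leaving out 1 library gave 5 to 45. The difference in mitotic share was −5.02 points in cells with C1q, and −6.36 to −3.96 without 1 library. The log2 fold change of Pf4 reversed in thinned cells (0.031) and that of Rpl4 in cells with under 2 UMIs of other lineages (−0.024). Fits with cells left out or thinned also hold fewer cells or genes, and the cause of the changed counts was not tested. Sums of 26 to 46 members per library limit genes of low level, and 10 of 49 spindle and kinetochore rows passed the filter.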

Other observations

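Granulocyte precursor transcripts did not lie in the same members. The 22 members with a C1q share under 0.3% held 120 of 137 Prtn3 UMIs and 100 of 129 Mpo UMIs, but 8 of 56 Elane UMIs and 7 of 23 Ctsg UMIs. As levels, Prtn3 was at 1369 CPM in these 22 cells and 71.8 CPM in the other 124 members, and Elane at 91.3 and 203 CPM. Reference cells at or over the limit held Elane at 209 CPM, and brain members at or over it 4.84 CPM. These levels pool the libraries. In all yolk sac reference cells the whole granulocyte precursor list ranged from 161 to 1326 CPM between libraries. These genes were chosen after their values were seen, and no test was made.

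Among genes outside the lists, chosen after their values were seen, Tmsb10, which binds actin monomers, had a log2 fold change of 1.15 in yolk sac and 0.043 in brain (interaction 1.02, edgeR adjusted p = 0.0115). The selenium carrier Sepp1 had −1.14 and −0.55 (interaction −0.67, edgeR adjusted p = 0.00584). Lsp1, a leukocyte protein of the actin skeleton, had 0.81 and −0.042 (interaction 0.75, edgeR adjusted p = 0.0486). None of these 3 interactions was called among cells with a C1q share of 0.3% or more.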
